A study of Homo sapiens with 10 samples.

Results

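The 5 libraries described here were WT_3, WT_4 and WT_5, labelled CREBBP+/+, and Het_6 and Het_7, labelled CREBBP+/-, out of 10 libraries of the cell line U2932. U2932 is a long-established culture of human DLBCL (diffuse large B cell lymphoma), a tumour of mature B cells. No treatment is labelled, and the only factor named is the CREBBP status, with both alleles present in CREBBP+/+ and 1 of them altered in CREBBP+/-. The sources used here do not say how CREBBP was altered, how clones were derived or whether libraries came from separate cultures. The p-values therefore measure only how far these libraries differ, which may be technical in part. The 5 libraries were chosen by the likeness of their expression profiles, which cluster together among the 10. The aim was to hold the subclone of the line fixed while the genotype differs. Within the 5, WT_4 and WT_5 lay apart from WT_3, Het_6 and Het_7, as given below, so the subclone may still differ. The choice used the values of all genes, and each comparison below is conditional on it.

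The working name of this cluster was BCL6-high, and BCL6 itself fitted that name only in part. BCL6, the repressor that maintains the germinal centre B cell state, lay at 528 to 614 CPM (counts scaled to a common library total, with TMM factors) in the 5 libraries and at 241 to 315 CPM in WT_1, WT_2 and Het_8. In Het_9 and Het_10, which were not part of the cluster, BCL6 was at 634 and 662 CPM, so its level alone did not separate the 5 libraries. PRDM1, which encodes the regulator of plasma cell differentiation BLIMP1, did so. It lay at 39.8 to 66.8 CPM in the 5 libraries and at 1.79 to 10.8 CPM in the other 5. The B cell genes MS4A1, CD79A, CD79B, PAX5 and CD22 were detected in every library. Of 30 markers of other cell types, 14 had no count in any of the 5 libraries and 3 (EPCAM, CD14 and CD8A) passed the filter on low counts. The summed level of all 30 lay between 23.0 and 26.6 CPM in CREBBP+/+ and at 25.3 and 28.4 CPM in CREBBP+/-. Most of this sum was EPCAM, at 19.9 to 24.9 CPM in CREBBP+/+ and at 23.2 and 26.8 CPM in CREBBP+/-.

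CREBBP encodes a histone acetyltransferase that serves as a transcriptional coactivator, as does its paralogue EP300. In B cells, MHC class II molecules present peptides from the endosome to CD4+ T cells. Their genes are switched on by CIITA, a coactivator without DNA binding of its own. CIITA is held at the promoters by the RFX complex on the X box and NF-Y on the Y box, and it recruits acetyltransferases such as CREBBP. Loss-of-function mutations of CREBBP and low class II expression are known features of germinal centre lymphomas.

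The promoters on which these factors meet are shown for the class II genes whose RefSeq windows (GRCh38.p14, 250 bases before to 50 after the annotated start) held the letters GNAAC followed by ATTGG, the core of the Y box, beginning 30 to 35 bases after the first letter of GNAAC, on either strand. Capitals mark the 2 motifs, and each stretch runs 10 bases beyond them, 5′ to 3′ on the strand where the pair was read. The spacing was chosen after these sequences were seen.
HLA-DRB1: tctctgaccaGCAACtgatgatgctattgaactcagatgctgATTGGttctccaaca
HLA-DRB5: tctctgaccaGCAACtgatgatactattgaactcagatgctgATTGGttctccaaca
HLA-DQA1: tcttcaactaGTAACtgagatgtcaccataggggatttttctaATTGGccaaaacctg
HLA-DOA: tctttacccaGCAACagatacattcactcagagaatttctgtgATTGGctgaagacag
They lie at chr6:32589880-32589936 on the minus strand, chr6:32530363-32530419 on the minus strand, chr6:32637295-32637352 on the plus strand and chr6:33009644-33009701 on the minus strand, in the order printed. The pair was found in 0.854% of 35116 RefSeq windows and in 4 of the 16 class II list genes that matched a window. CIITA and HLA-DRA did not match. ATTGG alone, on either strand, was in 34.6% of windows and in 13 of those 16 genes. A match of letters describes the window and does not show that a factor is bound.

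Total counts lay between 18208662 (WT_4) and 23020694 (Het_6) per library. The pair Het_6 and Het_7 was the closest by sampling noise (chi-square per gene 8.08), and no pair was close enough to be the same library deposited again. WT_3 lay nearer to the CREBBP+/- pair than to its own genotype. On the first principal component of log2 CPM, which held 66.5% of the variance, WT_3 scored -24.91, Het_6 -28.06 and Het_7 -24.04, while WT_4 scored 31.35 and WT_5 45.67. Of 12117 genes tested, 202 differed more than 2-fold between WT_3 and Het_6, against 655 between WT_3 and WT_4 and 866 between WT_3 and WT_5. The difference between the genotypes is given against all 3 CREBBP+/+ libraries, and for CREBBP, the main class II genes and, in the plot of medians, the gene lists also against WT_3 alone and against the mean of WT_4 and WT_5. WT_3 was singled out from these values, so that split is a description.

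CREBBP (chr16:3725054-3880713, minus strand) was lower in both CREBBP+/- libraries. It lay at 103 CPM in WT_3, 115 in WT_4 and 137 in WT_5, and at 71.8 CPM in Het_6 and 77.8 in Het_7. The groups did not overlap, and WT_3 was the CREBBP+/+ library nearest to the CREBBP+/- pair. The log2 fold change was -0.66 ± 0.13 (SE, n = 2 and 3), a level 1.58-fold lower, and it did not pass edgeR's quasi-likelihood test over all genes (Benjamini-Hochberg adjusted p = 0.392). DESeq2 called it (adjusted p = 0.00375), but not with an offset for GC content, added after the data were seen, where the log2 fold change was -0.56 (adjusted p = 0.0592). Without WT_3, edgeR called it (adjusted p = 0.0232), and with WT_3 as the only CREBBP+/+ library neither edgeR (adjusted p = 0.0503) nor DESeq2 (adjusted p = 0.196) did. The exact two-sided permutation test gave p = 0.1, the smallest that 2 against 3 libraries allow. Against WT_3 alone the level was 1.38-fold lower, and against the mean of WT_4 and WT_5 it was 1.68-fold lower. The counts cover the whole gene and do not tell the alleles apart. In these bulk libraries, fewer cells with a transcript and less of it per cell cannot be told apart either.

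The genes around CREBBP were also lower at the median. The 10 tested genes on each side of it had a median log2 difference of -0.21, against -0.01 over all genes tested. Against WT_3 their median was -0.09, and against WT_4 and WT_5 it was -0.27. With the GC content offset their fit median was -0.10. The differences ranged from 0.19 for ZNF597 to -1.46 for NLRC3, and CREBBP at -0.66 lay towards the lower end of this range. Only NLRC3, SLX4 (-0.85) and NMRAL1 (-0.82) were lower. Against WT_3 alone these stood at -0.20, -0.40 and -0.24 and CREBBP at -0.47, and only VASN was lower than CREBBP (-0.91). EP300 (chr22:41092592-41180077, plus strand) lay at 132, 134 and 136 CPM in WT_3, WT_4 and WT_5 and at 144 and 131 CPM in Het_6 and Het_7. The groups overlapped, and the log2 fold change of 0.03 ± 0.08 (SE) had a 95% interval from -0.15 to 0.22 and turned to -0.03 without Het_6.

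**Figure D1:**
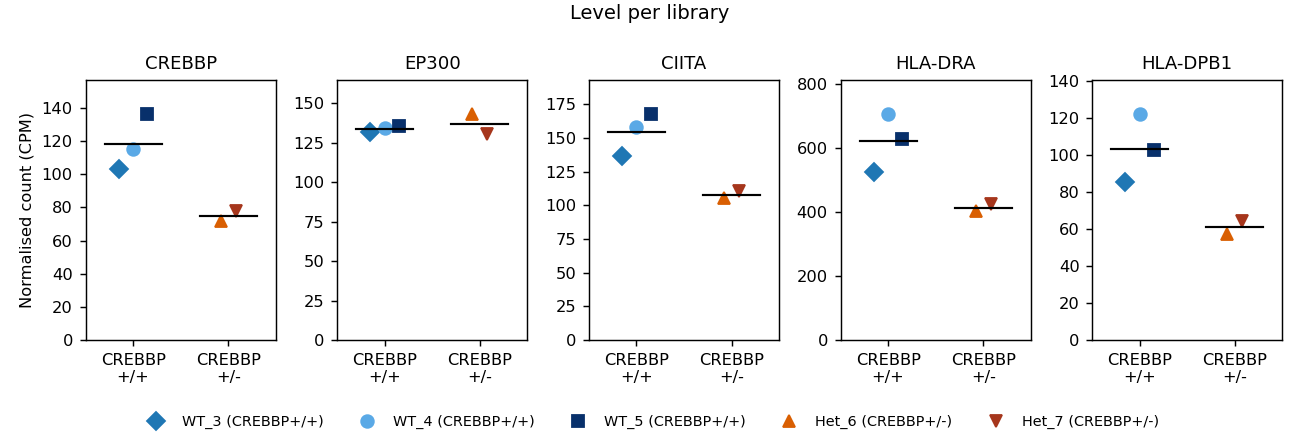
CPM (vertical axes from 0) of 5 genes in each of the 5 libraries, by genotype, with a bar at each group's mean. Both CREBBP+/- libraries lie below all 3 CREBBP+/+ libraries for CREBBP, CIITA, HLA-DRA and HLA-DPB1, WT_3 is the lowest CREBBP+/+ library for these 4 genes, and the groups overlap for EP300.

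Class II genes were lower in Het_6 and Het_7 as a group. Of the 18 list members, all of which passed the filter on low counts, 17 had a log2 difference below 0. The share below 0 over all genes tested was 51.5%. In 15 members both CREBBP+/- libraries lay below all 3 CREBBP+/+ libraries, an order that held for 18.2% of all genes tested. The median log2 difference was -0.55 for the list and -0.01 for all genes tested. No member passed edgeR's test, which called 0.0% of genes. DESeq2 called 10 members lower, against 1.21% of all genes it tested, and 9 with the GC content offset, against 0.314%. The list was written, and CIITA, HLA-DRA and HLA-DPB1 were picked as markers, with earlier results of these data known, so the direction of the list is not independent evidence.

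CIITA (chr16:10866222-10943021, plus strand), the coactivator on which the other class II genes depend, lay at 137 CPM in WT_3, 158 in WT_4 and 168 in WT_5, and at 105 and 111 CPM in Het_6 and Het_7. The groups did not overlap, and the log2 fold change was -0.51 ± 0.11 (SE; edgeR adjusted p = 0.392, DESeq2 adjusted p = 0.0074). It was -0.34 against WT_3 and -0.59 against WT_4 and WT_5. CIITA lies on the same chromosome as CREBBP, and the 20 tested genes around it had a median log2 difference of -0.17. The subunits of the RFX complex, which binds the X box, showed no such order. RFX5 lay at 166 to 204 CPM in CREBBP+/+ and at 184 and 176 CPM in CREBBP+/-. RFXAP lay at 24.1 to 30.4 CPM and at 22.8 and 28.9 CPM, and RFXANK at 43.2 to 51.7 CPM and at 49.5 and 47.9 CPM. For all 3 the groups overlapped, with log2 differences of -0.04 ± 0.10, -0.09 ± 0.15 and 0.01 ± 0.10 (SE), and the sign turned when single libraries were left out.

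Among the chains that form the surface dimers, HLA-DRA (chr6:32439878-32445046, plus strand), the invariant alpha chain of HLA-DR, lay at 526, 707 and 629 CPM in WT_3, WT_4 and WT_5 and at 402 and 424 CPM in Het_6 and Het_7. Its log2 fold change was -0.59 ± 0.13 (SE; edgeR adjusted p = 0.392, DESeq2 adjusted p = 0.0067). HLA-DRB1, the main DR beta chain, lay at 212, 325 and 297 CPM and at 142 and 153 CPM, with a log2 fold change of -0.91 ± 0.18. Every CREBBP+/- value of both genes lay below the lowest CREBBP+/+ value, which was that of WT_3. Against WT_3 the differences were -0.35 for HLA-DRA and -0.52 for HLA-DRB1, and against WT_4 and WT_5 they were -0.69 and -1.07. HLA-DPB1 (chr6:33075990-33089696, plus strand), the DP beta chain, lay at 85.5, 122 and 102 CPM and at 57.4 and 64.5 CPM, with a log2 fold change of -0.76 ± 0.16 (edgeR adjusted p = 0.392, DESeq2 adjusted p = 0.0039). HLA-DPB1 differed by -0.49 from WT_3 and by -0.88 from WT_4 and WT_5. Its partner HLA-DPA1 was at 290 to 351 CPM and at 233 and 260 CPM (-0.36 ± 0.11), and DESeq2 did not call it (adjusted p = 0.106). The DQ chains HLA-DQA1 and HLA-DQB1 had log2 differences of -0.42 and -0.82, and their near relatives HLA-DQA2 and HLA-DQB2 of -0.72 and -1.09. HLA-DRB5 stood at -0.90. Reads of the pairs HLA-DRB1 and HLA-DRB5, HLA-DQA1 and HLA-DQA2, and HLA-DQB1 and HLA-DQB2 may have been split between near-identical genes, and these 6 values are uncertain to that extent.

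The genes that guide loading were lower by varying amounts. CD74, the invariant chain that occupies the groove until the endosome, lay at 2002, 2525 and 2613 CPM in WT_3, WT_4 and WT_5 and at 1511 and 1607 CPM in Het_6 and Het_7. Its log2 fold change was -0.61 ± 0.13 (SE; edgeR adjusted p = 0.392, DESeq2 adjusted p = 0.0033), with -0.36 against WT_3 and -0.72 against WT_4 and WT_5. CD74 lies on chromosome 5, away from the other class II genes. The peptide exchange factor HLA-DM had differences of -0.42 for HLA-DMA and -0.47 for HLA-DMB, and DESeq2 called the former (adjusted p = 0.0441) and not the latter (adjusted p = 0.102). With the GC content offset DESeq2 did not call HLA-DMA (log2 fold change -0.38, adjusted p = 0.101). HLA-DOA and HLA-DOB, whose product restrains HLA-DM, had differences of -0.25 and -0.63, neither of them called. On chromosome 6 between the outermost class II genes, the 7 other tested genes had a median of -0.11.

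WT_3 lay between the other libraries for most of this list. In 14 of the 18 members it lay below WT_4 and WT_5 and above both CREBBP+/- libraries, an order seen in 10.9% of all genes tested. Against WT_3 alone the median difference of the list was -0.32, and against the mean of WT_4 and WT_5 it was -0.64. WT_3 itself stood at a median of -0.33 against WT_4 and WT_5. Both CREBBP+/- libraries lay below WT_3 in 17 of 18 members, against 38.4% of all genes tested. With WT_3 as the only CREBBP+/+ library, edgeR called 1 member (HLA-DRB1, adjusted p = 0.0393) against 0.602% of genes in that direction. DESeq2 called 2 (HLA-DRB1 and CD74, adjusted p = 0.0083 and 0.0213) against 0.312%. Both fits take the spread from the CREBBP+/- pair, and WT_3 is assumed to vary like it. Without WT_3, edgeR called 13 of the 18 members lower, against 3.98% of genes.

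**Figure D2:**
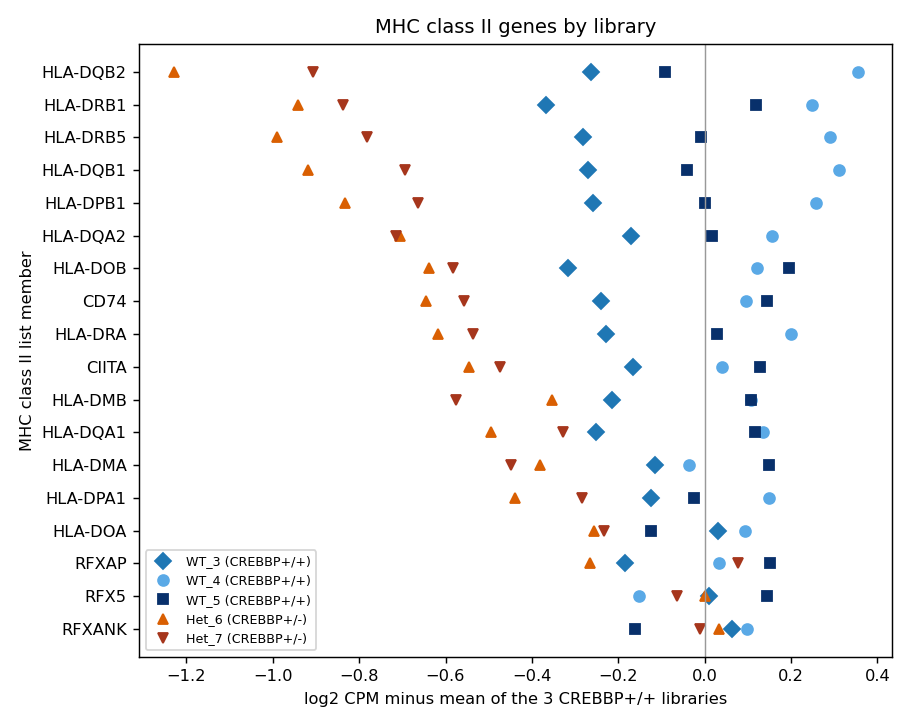
Log2 CPM of each of the 18 class II list members (vertical axis) in each library, as the difference from the mean of the 3 CREBBP+/+ libraries. Het_6 and Het_7 lie to the left of all CREBBP+/+ points in 15 members, WT_3 lies between them and WT_4 and WT_5 in 14, and the RFX subunits at the bottom show overlapping groups.

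Across all genes, edgeR called none of 12117 at an adjusted p under 0.05, and limma-voom also called none. The adjusted p of 0.392 that many genes share in edgeR comes from the step that keeps adjusted values in order. At an unadjusted p under 0.05 edgeR counted 1516 genes (12.5%), of which 992 (8.19%) were lower and 524 (4.32%) higher in CREBBP+/-. DESeq2 called 174 of 12272 genes (1.42%), of which 148 (1.21%) were lower and 26 (0.212%) higher. The count turned on WT_3 and on the tool. Without WT_3, edgeR called 813 genes (6.79%), with 476 lower (3.98%) and 337 higher (2.82%). With WT_3 as the only CREBBP+/+ library it called 81 genes (0.659%), with 74 lower (0.602%) and 7 higher (0.0569%), and DESeq2 called 50 (0.381%), with 41 lower (0.312%) and 9 higher (0.0686%). Differences of more than 2-fold were found in 168 genes (1.39%) against WT_3 and in 711 genes (5.87%) against the mean of WT_4 and WT_5, while Het_6 and Het_7 differed that much in 187 genes (1.54%).

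The genes of smallest p are named here as not past edgeR's threshold. SMIM14 (chr4:39546336-39638902, minus strand), a small membrane protein, had the smallest p among genes higher in CREBBP+/-. It lay at 18.2, 9.55 and 15.2 CPM in WT_3, WT_4 and WT_5 and at 114 and 113 CPM in Het_6 and Het_7, so the CREBBP+/- pair stood far above every CREBBP+/+ library. Its log2 fold change was 2.98 ± 0.24 (SE; edgeR adjusted p = 0.118, DESeq2 adjusted p = 5.0e-30). It was 6.20-fold higher than in WT_3 alone, where edgeR's adjusted p was 1.2e-05, and the neighbouring genes UGDH and UBE2K, named after their values were seen, had log2 differences of 0.23 each. HSPA4L, a heat shock protein of the HSP110 family, lay at 23.9 to 29.1 CPM and at 38.9 and 42.6 CPM (log2 fold change 0.64). ABCC4, an exporter of organic anions, lay at 19.4 to 22.3 CPM and at 33.3 and 31.4 CPM (0.63). ALDH1L2, a mitochondrial folate enzyme, and ESF1, a factor of pre-rRNA processing, differed by 1.13 and 0.56. DESeq2 called all 5 of these, and with the GC content offset it called SMIM14, HSPA4L and ABCC4 but not ALDH1L2 (log2 fold change 1.06, adjusted p = 0.0583) and ESF1 (0.46, adjusted p = 0.111). The other 5 were close to absent in CREBBP+/+ and are given as counts, with no fold. They passed the filter on low counts (minimum count 10) only through the CREBBP+/- libraries. The filter could thus keep them only as genes higher in CREBBP+/-, and their place among the smallest p is no support for a difference. HOXD10, a homeobox gene, had 1, 0 and 0 counts in WT_3, WT_4 and WT_5 and 22 and 12 in Het_6 and Het_7. HOXC6 had 8, 2 and 2 counts and 30 and 33, and LATS2, a kinase of the Hippo pathway, 7, 2 and 1 counts and 40 and 35. ZNF175 had 0, 1 and 1 counts and 40 and 13, and SPIN3 had 1, 0 and 0 counts and 13 and 18.

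IGHA2 (chr14:105583731-105588395, minus strand), an immunoglobulin A heavy chain constant gene, had the smallest p among the genes lower in CREBBP+/-. It lay at 24.5, 20.8 and 24.0 CPM in WT_3, WT_4 and WT_5 and at 8.79 and 8.82 CPM in Het_6 and Het_7. The log2 fold change was -1.39 ± 0.13 (SE; edgeR adjusted p = 0.133, DESeq2 adjusted p = 3.5e-11), and against WT_3 alone it was -1.47. IGHA1, its near-identical partner, lay at 345, 220 and 269 CPM and at 144 and 135 CPM (-0.99 ± 0.19), and the reads of the pair cannot be told apart with certainty. For IGHA1, WT_3 was the highest library, unlike the order seen for class II. EVL, which promotes actin filament growth, lay at 30.01, 42.8 and 36.2 CPM and at 16.1 and 12.5 CPM (-1.34 ± 0.19; DESeq2 adjusted p = 1.1e-06). SIPA1, a GTPase activator for RAP1, lay at 84.2 to 87.0 CPM and at 49.8 and 56.2 CPM (-0.69 ± 0.09), and in it the 3 CREBBP+/+ libraries lay close together. ARHGAP45, RGS19, PPDPF, ST6GALNAC4, PKMYT1, PIGQ and ATP6V0C followed, with differences between -0.78 and -0.54. Reads of ATP6V0C may be shared with a gene model that overlaps it. Without WT_3, edgeR called IGHA2 (adjusted p = 0.0117) and SMIM14 (adjusted p = 0.005). With the GC content offset, IGHA2, EVL and RGS19 remained called by DESeq2, and SIPA1, ARHGAP45, PPDPF, ST6GALNAC4, PKMYT1, PIGQ and ATP6V0C did not, with log2 fold changes between -0.48 and -0.22.

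Other lists of B cell genes differed by smaller amounts and held members in both directions. Of 25 germinal centre transcription factors and related genes, 17 had differences below 0, against 51.5% of all genes tested, and DESeq2 called 4, all of them lower, against 1.21%. S1PR2, a receptor that keeps B cells in the germinal centre, lay at 81.8 to 88.6 CPM in CREBBP+/+ and at 61.4 and 51.2 CPM in CREBBP+/- (log2 fold change -0.60). The ETS factors SPI1 and SPIB had differences of -0.61 and -0.37. POU2AF1, the B cell coactivator of octamer factors, lay at 1181 to 1296 CPM and at 968 and 961 CPM (-0.37). Of 25 genes of B cell receptor signalling, 21 had differences below 0, against 51.5%, and DESeq2 called 1, a count near the 1.21% of all genes. It was CR2, the complement receptor CD21 (33.1 to 39.6 CPM, and 22.7 and 25.1 CPM; -0.61). With the GC content offset DESeq2 called S1PR2, POU2AF1 and CR2 but not SPI1 (log2 fold change -0.32) and SPIB (-0.25). The list medians were -0.13 and -0.17 against all 3 CREBBP+/+ libraries, and -0.09 and -0.06 against WT_3 alone. Of 16 tested B cell surface genes, 11 had differences below 0 over all 3 CREBBP+/+ libraries, where 51.5% of all genes tested did, and 7 against WT_3 alone. TNFRSF14, the receptor HVEM, lay at 8.24, 12.9 and 13.3 CPM and at 4.20 and 5.87 CPM (-1.19; DESeq2 adjusted p = 0.0235), and was not called with the GC content offset (-0.93, adjusted p = 0.328). TNFRSF13B, the receptor TACI, was the other way, at 56.3 to 64.6 CPM and at 73.0 and 78.4 CPM (0.29), and DESeq2 called it only with the offset (0.46, adjusted p = 0.0195). Of 16 plasma cell genes, 11 had differences below 0, against 51.5% of all genes tested. Groups that did not overlap were lower in 2 (12.5%) and higher in 3 (18.8%), against 18.2% and 17.8% of all genes tested. These 2 counts were not above the shares over all genes by more than a small margin. SDC1, the plasma cell antigen CD138, lay at 13.0 to 17.6 CPM and at 7.72 and 8.34 CPM (-0.95; DESeq2 adjusted p = 0.0047). With the offset DESeq2 still called SDC1 (adjusted p = 0.0446). IRF4, a regulator of plasma cell differentiation, lay at 619, 511 and 508 CPM in WT_3, WT_4 and WT_5 and at 690 and 689 CPM in Het_6 and Het_7 (0.34; DESeq2 adjusted p = 0.139), and edgeR called it without WT_3 (adjusted p = 0.0262).

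Chemokine receptors and NF-kappaB genes went in both directions. CXCR4, which draws B cells to the dark zone, lay at 185 to 222 CPM in CREBBP+/+ and at 151 and 159 CPM in CREBBP+/- (log2 fold change -0.43; DESeq2 adjusted p = 0.0277). CXCR5, which draws them to the follicle, lay at 423 to 516 CPM and at 691 and 579 CPM (0.47; DESeq2 adjusted p = 0.032). BCL2A1, an inhibitor of apoptosis and NF-kappaB target, lay at 103 to 130 CPM and at 163 and 161 CPM (0.48; DESeq2 adjusted p = 0.0216), while RELB, a subunit of NF-kappaB, had a difference of -0.51 (DESeq2 adjusted p = 0.0343). With the GC content offset DESeq2 called CXCR4 and CXCR5 but not BCL2A1 (log2 fold change 0.41, adjusted p = 0.0534) and RELB (-0.22, adjusted p = 0.675). BIRC3 lay at 336, 210 and 211 CPM in WT_3, WT_4 and WT_5 and at 390 and 401 CPM in Het_6 and Het_7. WT_3 lay nearer to the CREBBP+/- pair for BIRC3, and its difference from the 3 CREBBP+/+ libraries was 0.65 (DESeq2 adjusted p = 0.0907).

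In the MHC class I list, 15 of 20 members had differences below 0, against 51.5% of all genes tested, and 6 had groups that did not overlap and lay lower, against 18.2%. DESeq2 called none of them, against 1.21% of genes lower. Among 27 genes of DNA replication and licensing, 21 had differences below 0 and 13 had groups that did not overlap and lay lower, against the same 51.5% and 18.2%. DESeq2 called 3 lower (CDT1 at -0.50, POLD1 at -0.39 and E2F2 at -0.73), against 1.21% of all genes. With the GC content offset it called none of them, against 0.314% of all genes lower, and they stood at -0.23, -0.12 and -0.60. Among lists with medians above 0, 7 of 15 heat shock chaperones had groups that did not overlap and lay higher, against 17.8% of genes (median 0.15), as did 10 of 22 ribosome biogenesis genes (median 0.10). DESeq2 called HSPA4L higher among the chaperones and no ribosome biogenesis gene, against 0.212% of all genes called higher. The median was 0.15 for 20 glycolysis genes, and -0.01 against WT_3 alone.

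**Figure D3:**
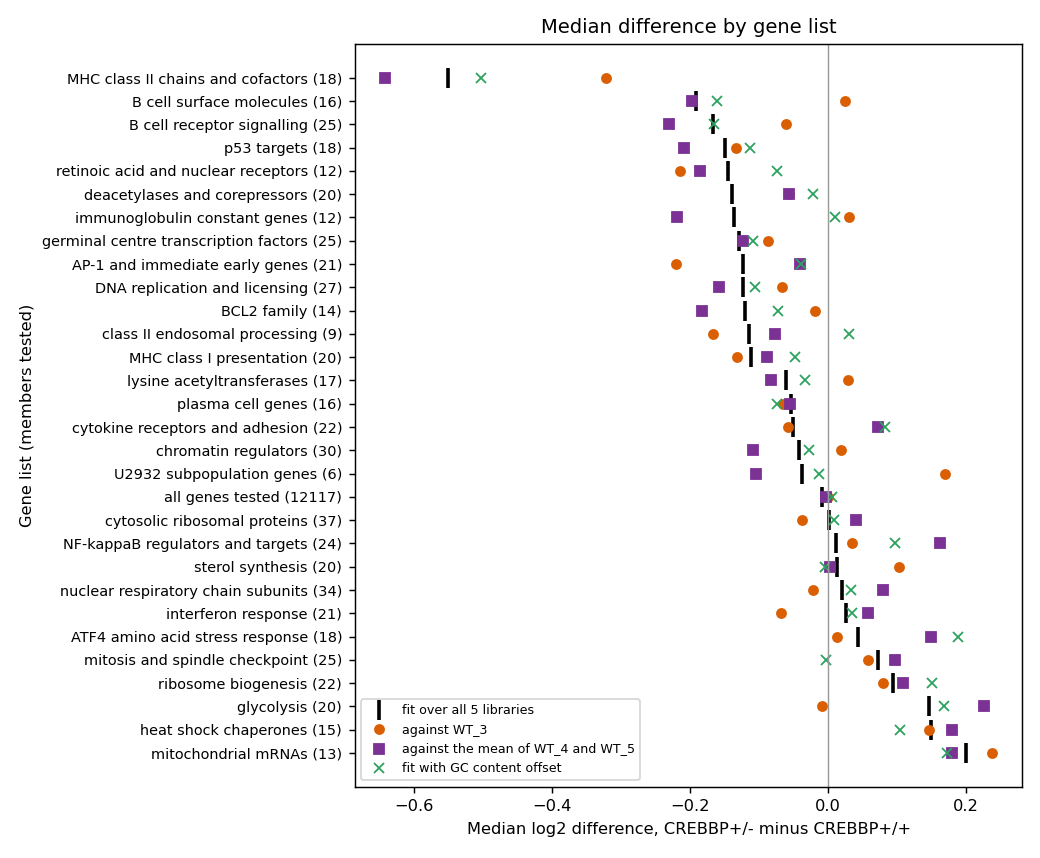
Median log2 difference of CREBBP+/- minus CREBBP+/+ (horizontal axis) for each gene list with at least 5 tested members, from the fit over the 5 libraries, against WT_3, against the mean of WT_4 and WT_5, and with the GC content offset. The class II list stands at -0.55, -0.32, -0.64 and -0.50, and the other lists have fit medians between -0.19 and 0.20.

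Counts from the mitochondrial genome took a larger share in both CREBBP+/- libraries. They made up 8.13%, 8.06% and 8.51% of all counts in WT_3, WT_4 and WT_5, and 8.89% and 10.2% in Het_6 and Het_7. The groups did not overlap, and the mean difference of 1.29 percentage points had an exact two-sided permutation p of 0.1, the smallest this design allows. Of the 13 mitochondrial mRNAs, 12 had differences above 0 and 6 had groups that did not overlap and lay higher, against 17.8% of all genes tested, with a median of 0.20. Het_7 decided its size, as the median was 0.07 without Het_7 and 0.32 without Het_6. Removing mitochondrial genes left the number of genes called by edgeR at 0. Its part in the other results was not tested.

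The difference between the genotypes varied with GC content, and the CREBBP+/+ libraries also differed from each other in this. With the genes ordered by GC content and cut into 10 equal classes, the median log2 difference was 0.11 in the lowest class (29.2% to 38.1% of transcript bases) and -0.27 in the highest (61.4% to 76.0%). The same trend was seen against WT_3 (0.09 to -0.26) and against WT_4 and WT_5 (0.12 to -0.26). WT_3 against the mean of WT_4 and WT_5 had medians of 0.01 and 0.02 in these classes, but that mean hides a difference between WT_4 and WT_5. Set against the mean of the 5 libraries, the highest class stood at 0.11, 0.19 and 0.0002 in WT_3, WT_4 and WT_5. It stood at -0.14 and -0.17 in Het_6 and Het_7. In the lowest class these values were -0.04, -0.10 and 0.01, and 0.05 and 0.08. The 148 genes that DESeq2 called lower had a median GC content of 61.4%, those called higher 41.3%, and all genes tested 47.9%. The class II list had a median of 47.8%, and its median difference with the GC content offset was -0.50. With this offset DESeq2 called 50 genes (0.413%) in place of 174, with 38 lower (0.314%) and 12 higher (0.0991%). For genes described above as called by DESeq2, a call lost with the offset is given with their values. The cause of the trend with GC content was not tested.

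**Figure D4:**
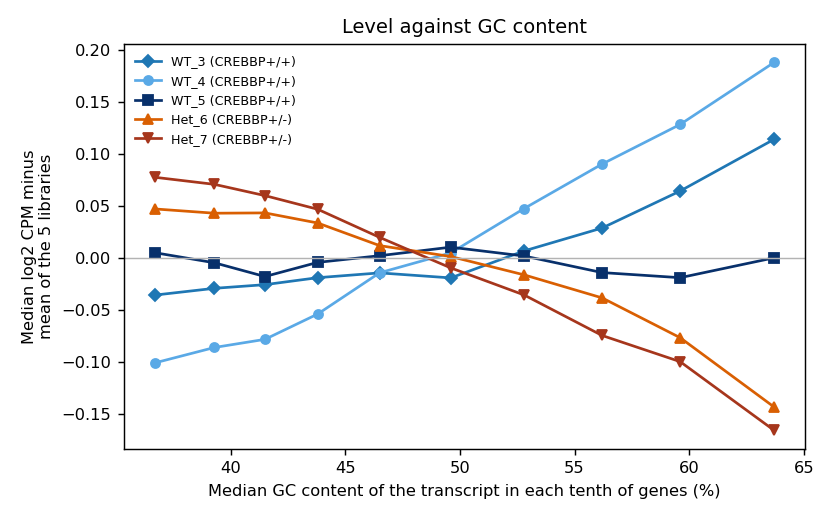
Median log2 CPM of each library, as the difference from the mean of the 5 libraries (vertical axis), in 10 equal classes of the tested genes ordered by the GC content of their transcripts (horizontal axis, percent). Het_6 and Het_7 run from above to below 0 with rising GC content, WT_3 and WT_4 run the opposite way, and WT_5 stays near 0.

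Several chromosome regions separated WT_4 and WT_5 from the other libraries. On chromosome 1 before its widest gap between tested genes, which spans the centromere, the 664 tested genes had a median log2 difference of -0.34 between CREBBP+/- and the mean of WT_4 and WT_5. WT_3 differed from WT_4 and WT_5 there by -0.36, and CREBBP+/- differed from WT_3 by 0.01. In the first 30 Mb of chromosome 8, 89 genes showed the same in the other direction, with medians of 0.39, 0.39 and -0.01. On chromosome 16, which carries CREBBP and CIITA, the 596 tested genes had medians of -0.26 for CREBBP+/- and -0.16 for WT_3 against WT_4 and WT_5, and of -0.07 for CREBBP+/- against WT_3. DESeq2 called 24 of them lower (4.03%, against 1.23% of genes with a position). Chromosome 16 is rich in GC, with a median of 55.0% against 47.9%. Its median in the fit over the 5 libraries was -0.22, and -0.13 with the GC content offset. Of the 24 genes called lower, 16 lie in its first 10 Mb (11.3% of 142 tested genes). The median GC content there was 61.2%, and the median difference was -0.31, and -0.11 with the offset. Other GC-rich stretches of 10 Mb had like shares called lower. From 140 to 150 Mb of chromosome 8 it was 11.1% (median difference -0.41, and -0.20 with the offset). From 60 to 70 Mb of chromosome 20 it was 13.0% (-0.23, and -0.09 with the offset). PIGQ, ATP6V0C, PKMYT1 and CDT1 lie on chromosome 16 too, and TNFRSF14 and E2F2 lie in the region of chromosome 1. Class II genes other than CIITA, CD74 and the RFX subunits lie on chromosome 6, whose medians were 0.01 against WT_4 and WT_5 and -0.01 against WT_3. From 30 to 40 Mb of it, where these class II genes lie, the 166 tested genes, class II included, had medians of -0.14 and -0.09. RNA counts do not tell a difference in copy number from one in transcription.

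**Figure D5:**
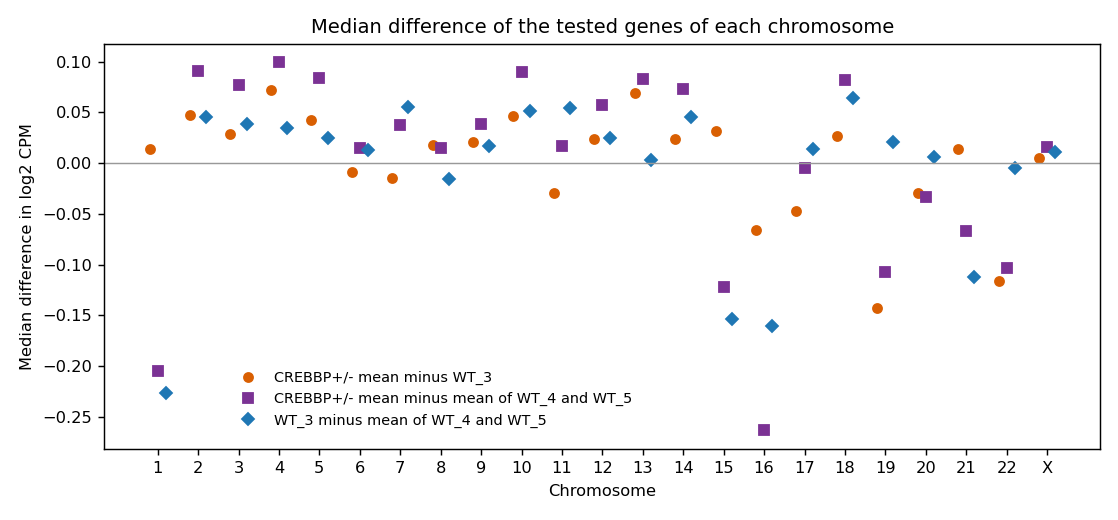
Median difference in log2 CPM (vertical axis) of the tested genes of each chromosome (horizontal axis), for CREBBP+/- minus WT_3, CREBBP+/- minus the mean of WT_4 and WT_5, and WT_3 minus the mean of WT_4 and WT_5. Chromosomes 1, 15 and 16 stand below 0 against WT_4 and WT_5 for both CREBBP+/- and WT_3. Chromosomes 19 and 22 stand below 0 for CREBBP+/- against either reference, while WT_3 stands near 0 there. Their median GC content is 58.1% and 56.5%, against 47.9% over all genes with a position. Their medians in the fit over the 5 libraries were -0.13 and -0.10, and 0.0064 and 0.0027 with the GC content offset.

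The CREBBP+/- libraries were not identical. S100A10, a partner of annexin A2, lay at 25.5 CPM in Het_6 and at 6.11 in Het_7, and at 22.2, 2.93 and 0.10 CPM in WT_3, WT_4 and WT_5. This gene was picked after its values were seen. The log2 fold change of S100A10 was 0.89 with an SE of 1.42, and it turned to -0.47 without Het_6. For the class II list the CREBBP+/- libraries lay close together, with Het_6 below Het_7 in 13 of 18 members, against 50.1% of all genes tested.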

How the data were processed

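RNA of 10 U2932 libraries was sequenced, and 5 of them were used. The deposited table holds raw counts by Ensembl gene. The tools listed in the submitters' processing notes are STAR, featureCounts, FastQC and DESeq2, and the build is GRCh38, and no source used here gives versions, counting options or strand use. Deposited counts of 10000 or more carry 4 significant digits. Of 21174 identifiers, 20229 matched a symbol in GENCODE 44, the source of coordinates. The CREBBP+/- columns, Het_6 to Het_10, carry numbers that no labelled sample has and were used as members of their group.

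edgeR 4.0.16 in R 4.3.3 fitted Het_6 and Het_7 against WT_3, WT_4 and WT_5 with TMM factors, robust quasi-likelihood dispersions, no covariate, and filterByExpr (minimum count 10, minimum total 15), which kept 12117 genes and dropped 9057. A gene counted as called at a two-sided Benjamini-Hochberg adjusted p under 0.05. Log2 CPM used a prior count of 2. DESeq2 1.42.0, limma-voom (limma 3.58.1), other scalings and filters, a fold limit, each library left out and a GC content offset were alternatives. Scripts were tested on simulated data. Members and gene lists were chosen with earlier results of these data known. Genes are named by rule: CREBBP, EP300, the class II list, up to 10 genes of smallest p per direction, and up to 4 members of smallest p per other list. Members that DESeq2 called, BCL6, PRDM1, IGHA1 and S100A10 were added after their values were seen. The values of 1 gene are not reported here.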

Additional observations from a re-analysis of the deposited data

How the results depend on the processing

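No paired analysis was possible because the CREBBP+/- columns carry numbers that no labelled sample has, so no number links a library of one genotype to a library of the other. edgeR called 0 genes with all 5 libraries, and also with size factors of DESeq2, upper-quartile factors, no filter, a filter of 1 CPM, a log2 fold limit of 0.5, without mitochondrial genes, with limma-voom and with the GC content offset. DESeq2 called 174 genes, and 50 with the GC content offset. Leaving out each library gave 0 to 813 genes in edgeR (813 without WT_3, 1 without WT_4) and 5 to 1151 in DESeq2 (1151 without WT_3, 41 without WT_4, 121 without WT_5, 5 without Het_6, 7 without Het_7). Without both WT_4 and WT_5 edgeR called 81 and DESeq2 50. The difference in log2 CPM of EP300 was 0.031, and lay from -0.037 (without Het_6) to 0.098 (without Het_7); its fitted log2 fold change lay from -0.031 to 0.098. Signs also turned for RFX5 (-0.11 to 0.038 with each library left out), RFXAP (-0.27 to 0.077, and 0.099 without WT_4 and WT_5), RFXANK (-0.070 to 0.054, and -0.052 without WT_4 and WT_5) and S100A10 (-0.47 to 3.41, and -0.47 without WT_4 and WT_5). The causes were not tested.

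List medians that moved by more than the spread were as follows. Without WT_4 and WT_5 they were -0.32 for class II, -0.13 for class I, 0.032 for acetyltransferases, -0.055 for deacetylases, -0.059 for B cell receptor signalling, 0.021 for B cell surface molecules, -0.066 for DNA replication, -0.016 for the BCL2 family, 0.11 for sterol synthesis, -0.0071 for glycolysis and 0.17 for subpopulation genes. With the GC content offset they were 0.031 for endosomal processing, -0.048 for class I, -0.021 for deacetylases, 0.15 for ribosome biogenesis, -0.0018 for mitosis, 0.19 for ATF4 targets and 0.084 for cytokine receptors. With upper-quartile factors they were -0.079 for class I and -0.090 for DNA replication. With each library left out they lay from -0.16 to -0.024 for endosomal processing, -0.18 to -0.072 for class I, -0.087 to 0.0087 for acetyltransferases, -0.17 to -0.052 for deacetylases, -0.15 to -0.050 for germinal centre factors, -0.43 to 0.048 for immunoglobulin constant genes, -0.079 to 0.14 for NF-kappaB genes, -0.10 to 0.088 for interferon genes, 0.070 to 0.32 for mitochondrial mRNAs, 0.015 to 0.074 for respiratory subunits, 0.062 to 0.16 for ribosome biogenesis, -0.16 to -0.093 for DNA replication, -0.049 to 0.16 for ATF4 targets, -0.13 to 0.086 for cytokine receptors and -0.26 to -0.14 for nuclear receptors.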
